A study of Mus musculus with 48 samples.

Results

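The 9 genes described here encode the neuronal subunits of the nicotinic acetylcholine receptor: Chrna2, Chrna3, Chrna4, Chrna5, Chrna6, Chrna7, Chrnb2, Chrnb3 and Chrnb4. They were taken as the probe sets annotated with exactly 1 of these symbols, with the highest-mean probe set kept where a gene had several, and they are 9 of the 22180 genes with such a probe set. Each subunit had 1 probe set, and all 9 passed the filter on low values, a mean of at least 5.05 on the log2 scale, as did 17274 genes in all. RNA came from male C57BL/6 mice on a cycle of 12 h of light and 12 h of darkness, with no other treatment or genotype in the labels. Tissue was dissected from the midbrain (SN/VTA, substantia nigra and ventral tegmental area), prefrontal cortex (PFC), habenula (HAB) and striatum (STR). Collection times are given as Zeitgeber time (ZT), in hours counted from lights on: ZT3, ZT7 and ZT11 fell in the light phase, and ZT15, ZT19 and ZT23 fell in darkness. Each array held RNA pooled from 3 mice of 1 time, and each tissue and time had 2 arrays, 1 from each of 2 successive 24-h cycles. Each tissue therefore had 12 arrays, of 48 in all, on the Affymetrix Mouse Gene 2.0 ST design.

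Nicotinic receptors are ligand-gated cation channels built from 5 subunits around a pore, and acetylcholine or nicotine opens them. The alpha subunits 2, 3, 4 and 6 pair with beta 2 or beta 4 to form the binding site, alpha 7 can form channels alone, and alpha 5 and beta 3 join as accessory subunits. In the dopamine system, receptors with alpha 4, alpha 6, beta 2 and beta 3 sit on dopamine neurons and their axons, and medial habenula neurons are known for alpha 3 with beta 4. An array measures messenger RNA and not assembled receptor, and in RNA of whole tissue fewer cells of a type and less RNA per cell cannot be told apart. RNA made by cell bodies elsewhere is not seen at the axons they send into a tissue.

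The dissections matched their labels by markers. All 48 arrays correlated best with arrays of their own tissue. The mean log2 level of 13 dopamine neuron markers was at least 8.66 in SN/VTA and at most 7.01 elsewhere, and that of 14 habenula markers was 8.30 to 8.62 in HAB and at most 7.16 elsewhere. Cortical projection neuron markers were at 9.35 to 9.59 in PFC and at most 8.38 elsewhere, and medium spiny neuron markers at 10.43 to 10.73 in STR and at most 8.13 elsewhere. The HAB arrays also held markers of the tissue around the habenula. Their mean of 8 hippocampus markers was 8.03 to 8.82, above the 7.32 that no other tissue passed, and their mean of 8 thalamus markers was at 8.20 on the lowest array with a median of 9.27, and its range takes in that of SN/VTA (8.90 to 9.54). Their mean of 8 choroid plexus markers went largely with the cycle: it was 8.82 to 9.26 on the 6 arrays of the first, and in the second it was below 8 on 5 arrays and 9.15 on the other.

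Between tissues the subunits fell into a few patterns. Chrna6 was high in SN/VTA alone, Chrna3 and Chrnb4 were highest in HAB, and Chrnb3 was high in both. Chrna4 and Chrnb2 were present on the higher part of the scale in all 4 tissues with smaller steps, Chrna5 was higher in PFC and SN/VTA, and Chrna7 and Chrna2 changed least. A difference between tissues was called at an adjusted p below 0.05 in limma with at least 1 on the log2 scale, which is 2-fold. Of the 54 differences of 9 subunits over 6 tissue pairs, 21 were called, and 7 of the 9 subunits had a call in at least 1 pair, against 16.7% of all genes tested. By adjusted p alone 45 of the 54 passed. For SN/VTA these were 7 of 9 against PFC (75.1% of all genes), 9 against STR (75.9%) and 7 against HAB (67.7%). They were 7 for PFC against STR (73.9%), 7 for PFC against HAB (72.4%) and 8 for STR against HAB (70.4%). These shares lie near those of all genes, so the calls below use the 2-fold rule.

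**Figure D1:**
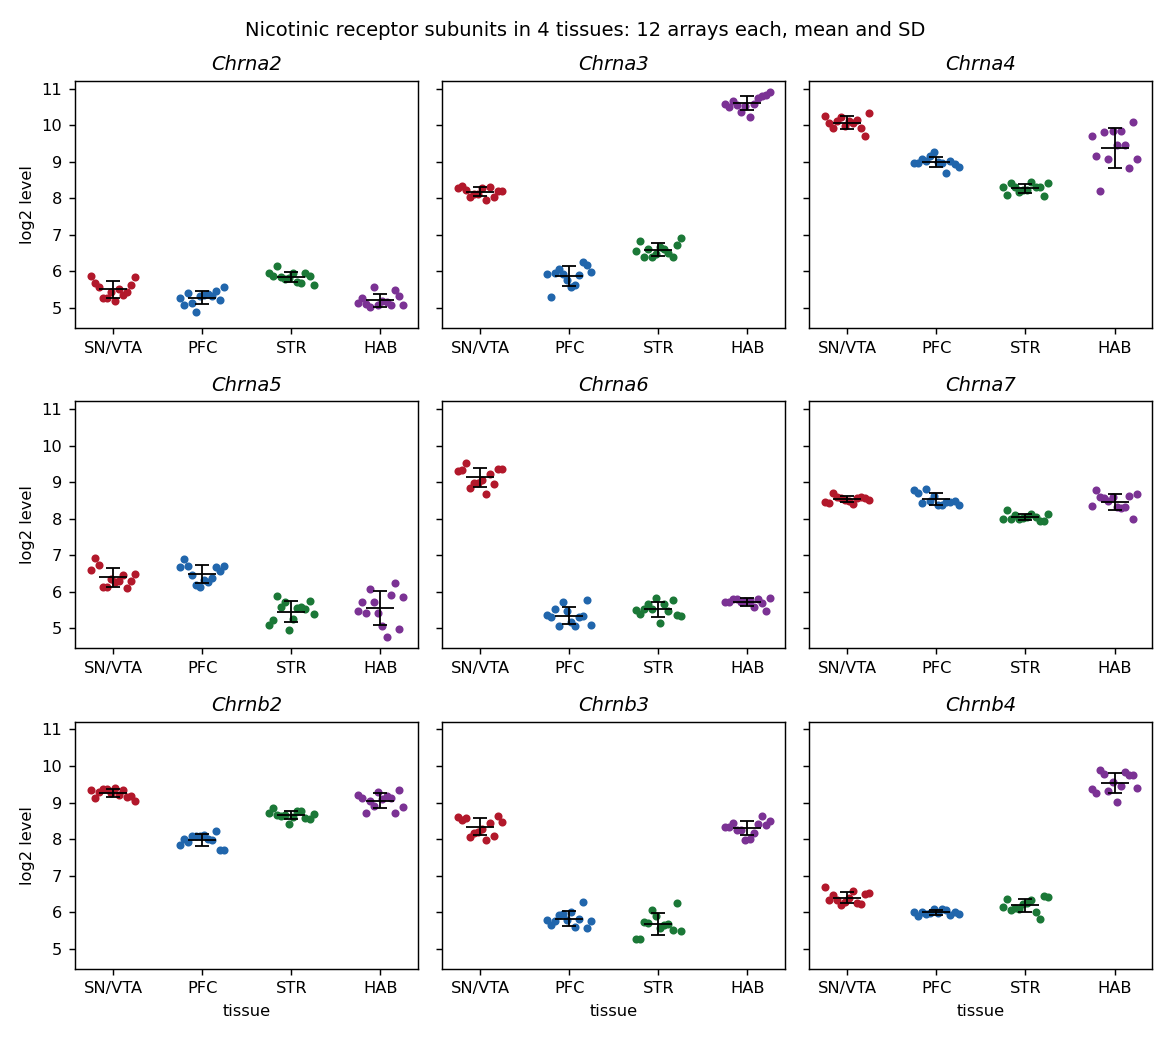
Log2 level of each subunit (y axis) in the 4 tissues (x axis). Each point is 1 array, ordered by time of day within a tissue, and bars give the mean and SD of 12 arrays; levels of different genes come from different probe sets and are not comparable. Chrna6 stands apart in SN/VTA, Chrna3 and Chrnb4 in HAB, and Chrnb3 in both, while Chrna7 lies between 7.92 and 8.82 on every array.

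In SN/VTA against PFC, 5 of 9 subunits were higher in SN/VTA (Chrna3, Chrna4, Chrna6, Chrnb2 and Chrnb3) and none was lower, where 9.33% of all genes were called, 6.18% in that direction. Against STR, 4 of 9 were higher in SN/VTA (Chrna3, Chrna4, Chrna6 and Chrnb3), with 5.18% of all genes called, 3.24% in that direction. Against HAB, Chrna6 was higher and Chrna3 and Chrnb4 were lower in SN/VTA, with 3.58% of all genes called, 1.58% higher and 2% lower. In PFC against STR only Chrna5 passed, higher in PFC, with 6.23% of all genes called, 3.59% in that direction. HAB exceeded PFC in 4 subunits (Chrna3, Chrnb2, Chrnb3 and Chrnb4), with 5.68% called, 3.2% in that direction, and STR in 4 (Chrna3, Chrna4, Chrnb3 and Chrnb4), with 3.42% called, 2.14% in that direction. The median difference over the 9 subunits was 1.07 for SN/VTA minus PFC and 0.94 for SN/VTA minus STR, against 0.05 and 0.06 over all genes tested. It was -0.38 for PFC minus HAB and -0.42 for STR minus HAB, against -0.02 and -0.01 over all genes.

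**Figure D2:**
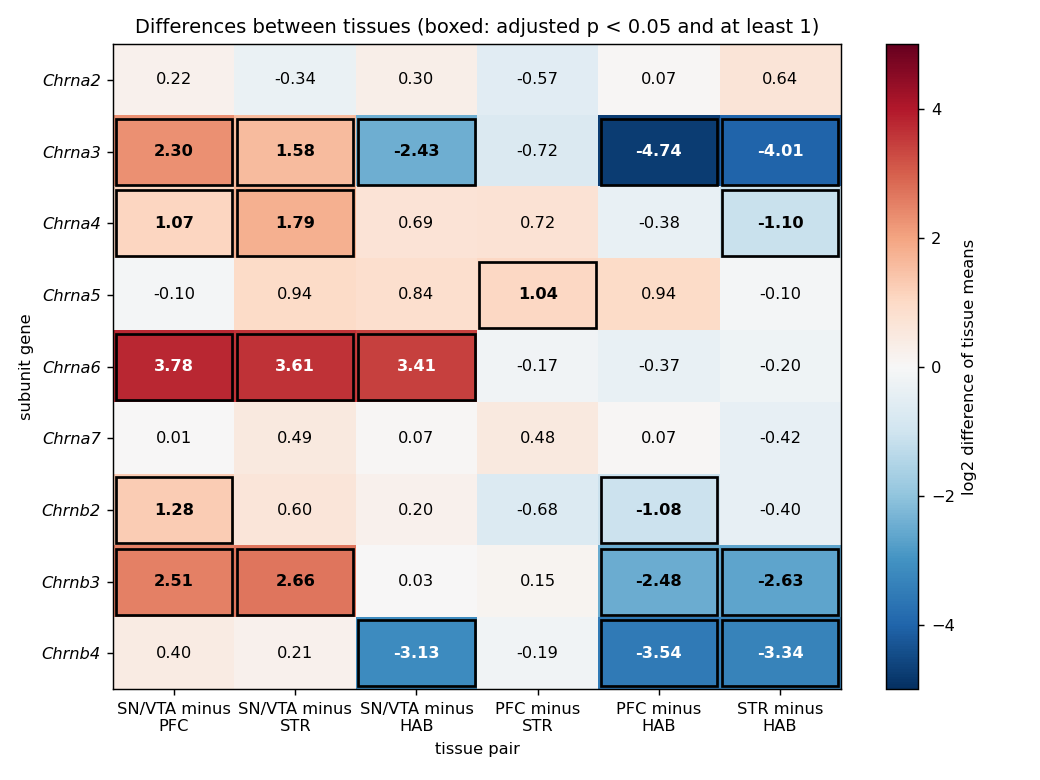
Difference of tissue means on the log2 scale (colour and number) for each subunit (rows) and tissue pair (columns), with called differences boxed. Red is higher in the first tissue. The largest difference is that of Chrna3, -4.74 for PFC minus HAB, and the rows of Chrna2 and Chrna7 hold no box.

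Chrna4 and Chrnb2 encode the subunits of the most widespread receptor of the brain. Chrna4 was lowest at 9.69, with a median of 10.08 and a highest of 10.34, in SN/VTA. It spanned 8.70, 8.99 and 9.28 (lowest, median and highest) in PFC and 8.07, 8.30 and 8.45 in STR. In HAB it spread far more, 8.20, 9.46 and 10.09, with an SD of 0.54 against 0.13 to 0.17 in the other tissues. The order of the means was therefore SN/VTA, HAB, PFC and STR, and each neighbour in this order differed at adjusted p below 0.05. SN/VTA exceeded PFC by 1.07 ± 0.13 (SE, adjusted p = 2.13e-08) and STR by 1.79 ± 0.13 (3.47-fold), without overlap of arrays in either pair. HAB exceeded STR by 1.10 ± 0.13, but here the arrays overlapped, and without the second array of HAB at ZT7 the difference was 0.97 and no longer reached 1 (-0.97 as STR minus HAB).

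Chrnb2 spanned 9.05, 9.28 and 9.40 in SN/VTA, 8.72, 9.11 and 9.35 in HAB, 8.41, 8.66 and 8.85 in STR, and lay between 7.69 and 8.23 in PFC. PFC was thus the lowest tissue, where for Chrna4 it was STR. No PFC array reached the level of any array elsewhere. SN/VTA was 2.43-fold and HAB 2.11-fold above PFC (adjusted p = 5.97e-18 and 6.59e-16), while SN/VTA and HAB differed by only 0.20 ± 0.06 (adjusted p = 0.00392) with overlapping arrays.

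Chrna6 and Chrnb3 encode subunits known from catecholamine neurons and lie side by side on chromosome 8 in the RefSeq annotation. Chrna6 spanned 8.68, 9.14 and 9.52 in SN/VTA. In the other tissues no array passed 5.84, with medians of 5.32 in PFC, 5.51 in STR and 5.73 in HAB. SN/VTA was 13.8-fold above PFC, 12.2-fold above STR and 10.6-fold above HAB (differences of 3.78, 3.61 and 3.41, SE 0.08, each adjusted p at most 2.63e-24). Among the 3 low tissues HAB exceeded PFC by 0.37 ± 0.08 (1.29-fold, adjusted p = 0.000139), with overlapping arrays. HAB and STR differed by 0.20 ± 0.08 (adjusted p = 0.0254), and STR and PFC by 0.17 ± 0.08 (adjusted p = 0.0590). No detection calls were used, so whether these low levels are above background is unknown.

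Chrnb3 did not share that single peak. It spanned 7.97, 8.37 and 8.62 in SN/VTA and 7.96, 8.32 and 8.63 in HAB, nearly the same range. The difference of 0.03 ± 0.08 between them had an adjusted p of 0.764. In PFC and STR no array passed 6.27, and the means of 5.83 and 5.67 differed by 0.15 ± 0.08 (adjusted p = 0.0705). SN/VTA was 5.69-fold above PFC and 6.32-fold above STR, and HAB 5.58-fold and 6.21-fold, all 4 without overlap. The adjacent genes thus agreed in SN/VTA, PFC and STR and parted in HAB, where Chrnb3 was high and Chrna6 was not.

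Chrna5, Chrna3 and Chrnb4 follow each other on chromosome 9 in the RefSeq annotation, and the gene models of Chrna5 and Chrna3 overlap; whether the probe sets share sequence is not known here. Chrna3 and Chrnb4 were high in the same tissue and Chrna5 was not, so the promoter windows of the 3 neighbours are shown, each of 300 bases around a start site in RefSeq (GRCm38.p6). They are Chrna5 at chr9:54981238-54981537 on the plus strand (the second of its start sites in the table), Chrna3 at chr9:55026513-55026812 on the minus strand and Chrnb4 at chr9:55048495-55048794 on the minus strand. Capitals mark the GC box GGGCGG or its reverse complement CCGCCC.
Chrna5: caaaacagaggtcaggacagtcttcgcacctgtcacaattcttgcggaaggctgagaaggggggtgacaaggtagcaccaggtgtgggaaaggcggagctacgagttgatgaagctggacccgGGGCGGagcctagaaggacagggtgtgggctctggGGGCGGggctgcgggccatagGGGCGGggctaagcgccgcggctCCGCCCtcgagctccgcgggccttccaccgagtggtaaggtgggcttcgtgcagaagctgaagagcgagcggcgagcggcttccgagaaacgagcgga
Chrna3: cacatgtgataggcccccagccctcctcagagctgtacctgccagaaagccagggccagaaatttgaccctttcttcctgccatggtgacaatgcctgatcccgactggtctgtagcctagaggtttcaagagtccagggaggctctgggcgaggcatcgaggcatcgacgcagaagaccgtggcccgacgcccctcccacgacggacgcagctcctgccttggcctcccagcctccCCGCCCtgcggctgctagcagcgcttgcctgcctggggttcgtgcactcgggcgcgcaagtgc
Chrnb4: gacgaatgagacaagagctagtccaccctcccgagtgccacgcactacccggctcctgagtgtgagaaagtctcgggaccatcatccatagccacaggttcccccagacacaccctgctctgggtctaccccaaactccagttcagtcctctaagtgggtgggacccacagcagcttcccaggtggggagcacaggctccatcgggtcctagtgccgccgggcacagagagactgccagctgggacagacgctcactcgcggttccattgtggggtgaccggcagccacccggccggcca
The Chrna5 window held 4 GC boxes, the Chrna3 window 1 and the Chrnb4 window 0, and the window of the first Chrna5 start site held 0. On both strands, 35.66% of 32851 windows of 300 bases in the table held at least 1. Of the 6 subunits with a window in the table, Chrna4 held 3 GC boxes, and Chrna7 and Chrnb2 held 1 each. The E-box CACGTG, which clock proteins bind, was found once, in the Chrna7 window, and in 7.15% of all windows. These are letter matches and say nothing of factors bound.

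Chrna3 had the widest range of the 9 subunits. It spanned 10.22, 10.59 and 10.90 in HAB and 7.94, 8.19 and 8.34 in SN/VTA. STR followed at 6.38, 6.59 and 6.92, and PFC at 5.30, 5.93 and 6.25. No 2 tissues overlapped on any array. HAB was 5.40-fold above SN/VTA, 16.1-fold above STR and 26.6-fold above PFC, the last with an adjusted p of 7.63e-31, and each step in the order passed the test, down to 0.72 ± 0.06 between STR and PFC (adjusted p = 1.32e-11).

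Chrnb4 stood out in HAB only. It spanned 9.01, 9.51 and 9.89 there and no array passed 6.69 elsewhere. HAB was 8.78-fold above SN/VTA, 10.1-fold above STR and 11.6-fold above PFC (adjusted p = 8.04e-30 for the last). The other 3 tissues differed by small steps, SN/VTA from STR by 0.21 ± 0.05 (adjusted p = 0.000662) and STR from PFC by 0.19 ± 0.05 (adjusted p = 0.00158), both with overlap. In SN/VTA, Chrna3 was therefore raised 4.94-fold over PFC while Chrnb4 was raised 1.32-fold.

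Chrna5, an accessory subunit that alters calcium entry and desensitisation, followed neither neighbour. It spanned 6.12, 6.51 and 6.90 in PFC and 6.09, 6.32 and 6.91 in SN/VTA, which did not differ detectably (0.10 ± 0.10, adjusted p = 0.369). It spanned 4.76, 5.60 and 6.24 in HAB and 4.95, 5.54 and 5.89 in STR (0.10 ± 0.10, adjusted p = 0.395). PFC exceeded STR by 1.04 ± 0.10 (2.05-fold, adjusted p = 1.70e-10), with no overlap of arrays. This call sits at the threshold: without the second STR array at ZT11 it was 0.97. PFC exceeded HAB by 0.94 ± 0.10, short of a call, and reached 1.01 without the second HAB array at ZT23. SN/VTA exceeded STR by 0.94 ± 0.10, also short of a call. It passed at 1.12 and 1.11 when the arrays were centred on their medians or quantile normalized, and at 1.002 without the first STR array at ZT11.

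Chrna7, the subunit of the fast, calcium-permeable channel that needs no partner, was the most even. It spanned 8.40, 8.53 and 8.71 in SN/VTA, 8.36, 8.47 and 8.82 in PFC, and 7.98, 8.53 and 8.79 in HAB. These 3 did not differ detectably, with adjusted p from 0.295 to 0.942. STR was lower, at 7.92, 8.03 and 8.23, by 0.42 to 0.49 (1.33-fold to 1.40-fold, adjusted p at most 6.84e-07). Chrna2, known from a sparse class of interneurons, was the only subunit highest in STR, at 5.63, 5.86 and 6.14. It exceeded HAB (5.02, 5.15 and 5.58) by 0.64 ± 0.07 and PFC (4.89, 5.33 and 5.57) by 0.57 ± 0.07, both below 2-fold but without overlap of arrays, and SN/VTA (5.20, 5.48 and 5.89) by 0.34 ± 0.07. Its level lay near the filter on low values in each tissue.

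Counted by arrays that do not overlap, 6 of 9 subunits parted SN/VTA from PFC (40.5% of all genes) and 7 parted SN/VTA from STR (33.8%). The count was 3 for SN/VTA and HAB (27.3%), 6 for PFC and STR (29.6%), 4 for PFC and HAB (30.3%) and 4 for STR and HAB (17.5%). Over all pairs 30 of 54 differences had no overlap.

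Each array measured all subunits in the same RNA. The balance of 2 subunits within an array is therefore free of a shift common to that array, though not of a scaling that depends on level. Set between tissues, this balance gives a difference of differences, since the 2 probe sets have no common scale. Of 30 such comparisons (5 balances over 6 tissue pairs), 27 passed a permutation test with 100000 resamples, two-sided, at adjusted p below 0.05. Each combines the tissue differences of 2 subunits given above, so this count is no separate support for them. The share of other gene pairs that would pass was not computed. The balance of Chrnb4 to Chrnb2, which are alternative beta partners, was 10.1-fold higher in HAB than in SN/VTA and 5.50-fold higher than in PFC. The balance of Chrna3 to Chrna4 was 20.5-fold higher in HAB than in PFC and 8.70-fold higher than in SN/VTA. That of Chrna6 to Chrna4 was 6.55-fold higher in SN/VTA than in PFC and 6.60-fold higher than in HAB. For each of these the p was 1e-05, the smallest that the resamples can give (adjusted p = 1.5e-05), and no array of one tissue overlapped the other.

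The balances of the accessory subunits to Chrnb2 or Chrna4 differed between tissues as well, in part through Chrnb2 or Chrna4 alone. Chrnb3 relative to Chrnb2 was lowest in STR, where HAB exceeded it 4.71-fold and SN/VTA 4.16-fold (adjusted p = 1.5e-05 for both, permutation test), without overlap of arrays. It was 2.34-fold higher in SN/VTA than in PFC and differed by 1.13-fold between SN/VTA and HAB (adjusted p = 0.198, permutation test). That this balance was lower in STR than in PFC went mainly with Chrnb2, at -0.68 on the log2 scale for PFC minus STR. Chrnb3 itself did not differ detectably there (0.15, adjusted p = 0.0705, limma) and was low in both. Chrna5 relative to Chrna4 was 2.25-fold higher in PFC than in SN/VTA (adjusted p = 1.5e-05, permutation test), with some overlap of arrays. This went with Chrna4, at 1.07 on the log2 scale for SN/VTA minus PFC. Chrna5 itself did not differ detectably there (-0.10, adjusted p = 0.369, limma). The balance of Chrna5 to Chrna4 did not differ detectably between SN/VTA and HAB (1.11-fold, adjusted p = 0.575, permutation test), where its SD in HAB was 0.82. The third comparison that missed the threshold was Chrna6 to Chrna4 between PFC and HAB (1.01-fold, adjusted p = 0.959).

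With time of day no change of a subunit passed a test while all arrays were kept. With 12 arrays per tissue this does not show that the subunits stayed level. No subunit was called as rhythmic over 24 h in any tissue (0 of 9 in each, limma F test of a cosine and sine, adjusted p below 0.05), and few genes were: 0.162% in SN/VTA, 0.179% in PFC and 0.0174% in both STR and HAB. At an unadjusted p below 0.05 there were 3 subunits in SN/VTA, 4 in PFC, 0 in STR and 2 in HAB, where the share of all genes was 9.87%, 11.6%, 8.49% and 6.30%. The median amplitude, the log2 height of a fitted peak above its mean, was 0.09 over the subunits in SN/VTA against 0.05 over all genes, 0.12 against 0.08 in PFC, 0.06 against 0.08 in STR and 0.10 against 0.07 in HAB. Among all genes tested in a tissue, the subunit amplitudes lay between percentile 5.91 (Chrna7 in STR) and percentile 99.4 (Chrna6 in SN/VTA). Chrna2 and Chrnb3 in SN/VTA were both at 99.2 and Chrna5 in PFC at 99.3, while Chrnb2 in HAB was at 6.34 and Chrna5 in STR at 6.76. As a measure of what was within reach, the clock-controlled genes Dbp and Ciart and the clock gene Per1 were called in SN/VTA with amplitudes of 0.44, 0.51 and 0.41.

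**Figure D3:**
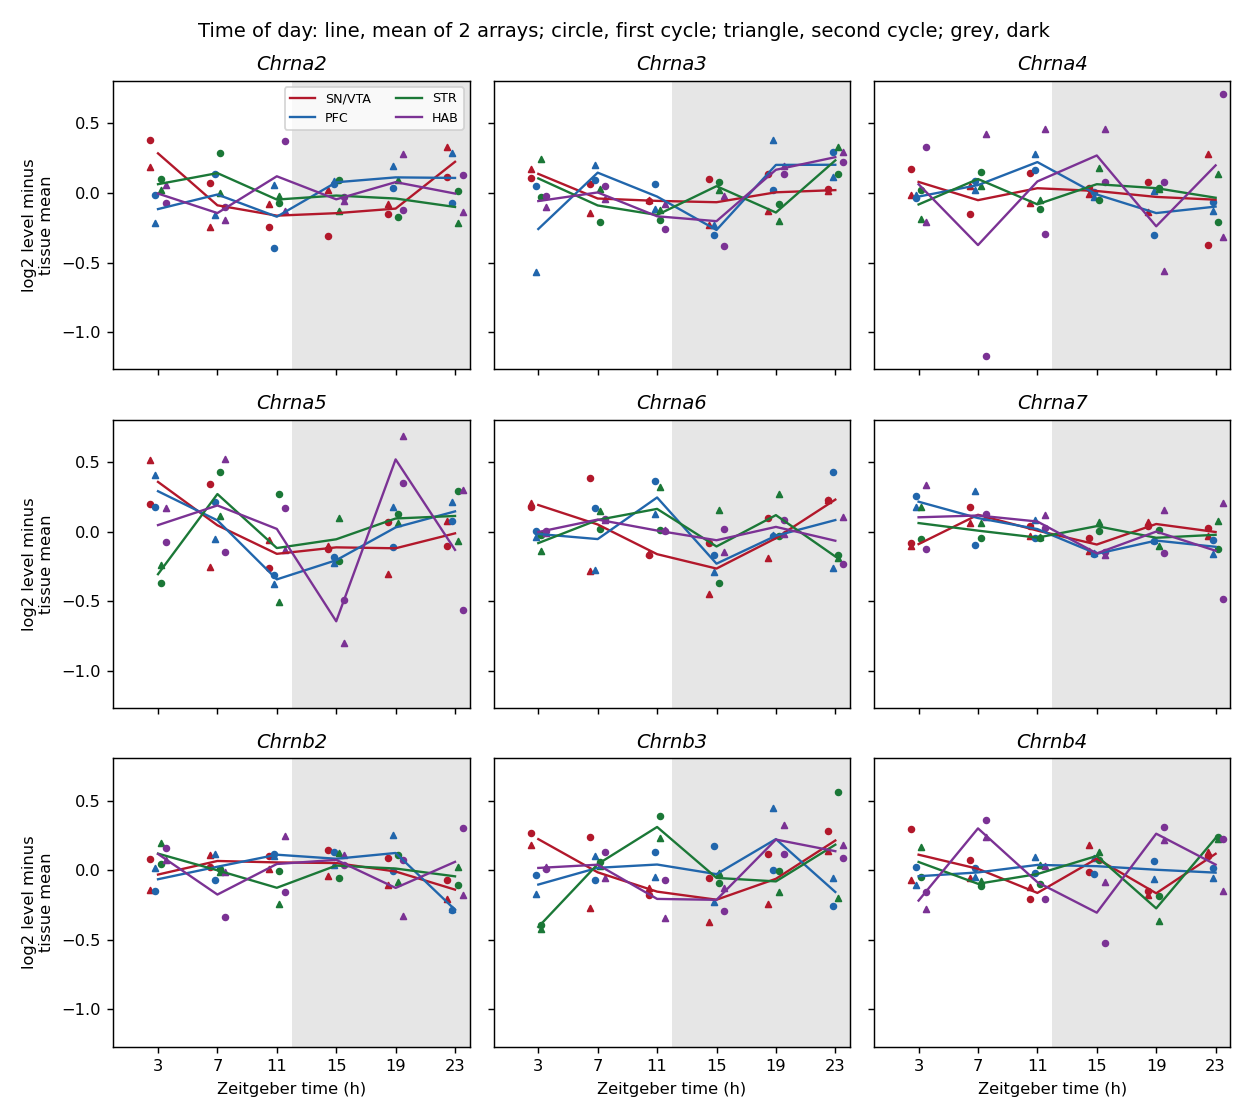
Level minus the mean of its tissue (y axis, log2) against Zeitgeber time in hours (x axis) for each subunit. Lines join the means of 2 arrays, circles and triangles are the arrays of the first and second cycle, and grey marks darkness. Chrna6 in SN/VTA and Chrna5 in PFC are low around ZT11 and ZT15, and Chrna4 in HAB scatters between cycles at the same time.

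The largest fitted amplitude was that of Chrna5 in PFC, 0.28 ± 0.05 (SE), a 1.48-fold change from trough to peak with the peak at ZT1.2 (unadjusted p = 0.000514, adjusted p = 0.0959). Its arrays read 6.67 and 6.90 at ZT3, 6.71 and 6.45 at ZT7, 6.19 and 6.12 at ZT11, 6.31 and 6.27 at ZT15, 6.38 and 6.67 at ZT19, and 6.58 and 6.71 at ZT23. The 4 arrays of ZT11 and ZT15 were the lowest of the 12. Chrna4, Chrna7 and Chrnb2 were the other subunits with an unadjusted p below 0.05 in PFC, at amplitudes of 0.15, 0.15 and 0.16 and peaks at ZT9.6, ZT5.2 and ZT12.8, so that they did not peak together.

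In SN/VTA the 3 subunits with an unadjusted p below 0.05 peaked close together: Chrna2 at ZT1.2 (amplitude 0.24 ± 0.06), Chrnb3 at ZT1.4 (0.23 ± 0.06) and Chrna6 at ZT1.7 (0.25 ± 0.07). Their adjusted p were 0.260, 0.319 and 0.340. Chrna2 lay near the filter on low values, with a mean of 5.51 in SN/VTA. Chrna6 and Chrnb3 correlated with r = 0.97 on these arrays, so their peaks are not separate observations. Chrna6 read 9.31 and 9.34 at ZT3 and 9.36 and 9.36 at ZT23, against 8.96 and 8.98 at ZT11 and 9.05 and 8.68 at ZT15. The highest array of all, 9.52, came at ZT7 in the first cycle, and its partner in the second cycle read 8.85. The mean of the 13 dopamine neuron markers also peaked at ZT1.7 on these arrays, with an amplitude of 0.10. Among its members, Slc6a3, the dopamine transporter, Slc18a2, the vesicular monoamine transporter, and Th, the rate-limiting enzyme of dopamine synthesis, peaked between ZT1.5 and ZT2.2. Their amplitudes of 0.20, 0.18 and 0.18 were above that of the mean, and none was called. The curves of the other members are not described here. Means of the other lists peaked at other times: thalamus at ZT14.2 (amplitude 0.17), serotonin neuron at ZT19.9 (0.21) and oligodendrocyte at ZT6.5 (0.07). The part of any of these markers in the curves of Chrna6, Chrnb3 and Chrna2 was not tested.

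In HAB, Chrna3 peaked at ZT22.9 (0.19 ± 0.06, adjusted p = 0.749) and Chrnb3 at ZT23.3 (0.18 ± 0.06, adjusted p = 0.764). For Chrna3 the arrays at ZT19 and ZT23 read 10.74, 10.80, 10.83 and 10.90, and the other 8 arrays lay between 10.22 and 10.66. The mean of the habenula markers had an amplitude of 0.10 and its peak at ZT23.0. Means of the hippocampus, thalamus and choroid plexus markers peaked at ZT22.9, ZT17.6 and ZT15.7, with amplitudes of 0.08, 0.14 and 0.27. The part of any of these markers in the curves of Chrna3 and Chrnb3 was not tested. Chrna5 in HAB had its lowest pair at ZT15 (5.07 and 4.76) and its highest at ZT19 (5.91 and 6.24), a pattern no 24-h curve describes (adjusted p = 0.957), and with time as 6 levels its adjusted p was 0.929. In STR no subunit had an unadjusted p below 0.05.

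**Figure D4:**
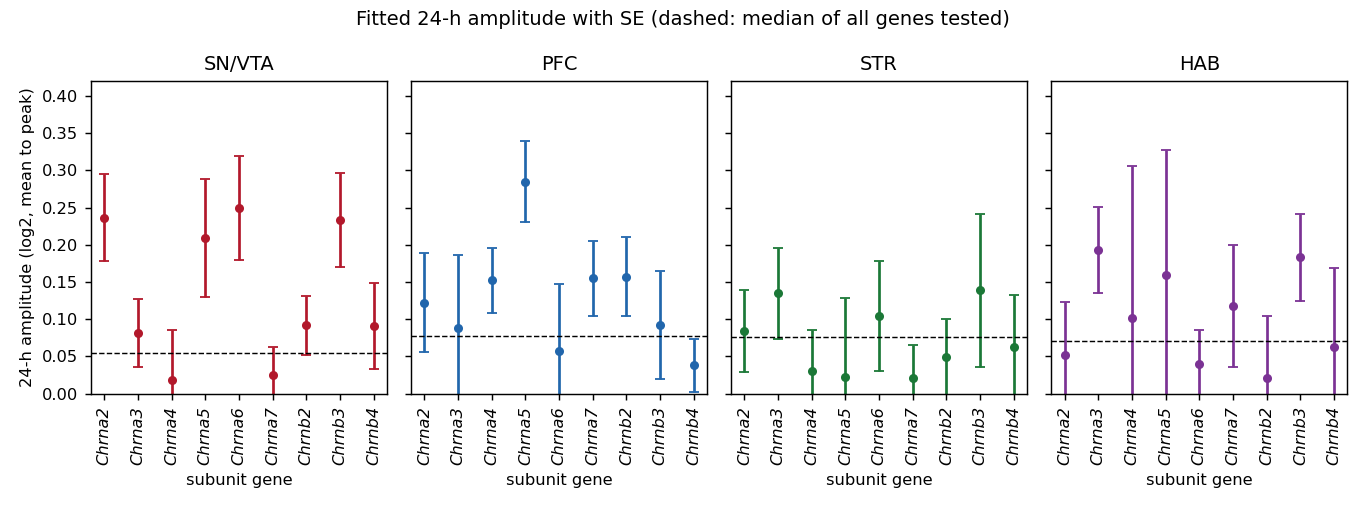
Amplitude of the fitted 24-h curve (y axis, log2, mean to peak) with its SE for each subunit (x axis) in the 4 tissues; error bars are cut at 0. The dashed line is the median of all genes tested. Chrna5 in PFC is highest at 0.28, and Chrna2, Chrna6 and Chrnb3 lie between 0.23 and 0.25 in SN/VTA.

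Over all 48 arrays with a curve shared by the tissues, 0 of 9 subunits were called, against 5.55% of all genes. At an unadjusted p below 0.05 there were 3 (19.1% of all genes): Chrna3 (amplitude 0.12 ± 0.04, peak at ZT23.5, adjusted p = 0.0835), Chrna5 (0.16 ± 0.06, peak at ZT1.8, adjusted p = 0.228) and Chrna7 (0.08 ± 0.03, peak at ZT5.8, adjusted p = 0.207). The shared curve of Chrna3 passed once, at 0.14 with an adjusted p of 0.00668, when the second PFC array at ZT3, its lowest array in PFC (5.30), was left out. A difference of the curve between tissues was called for 0 of 9 subunits (0.0289% of all genes) by the limma interaction test. Only Chrnb3 and Chrna2 had an unadjusted p below 0.05 in that test, with adjusted p of 0.723 and 0.739 in limma. Of all 17274 genes, 1147 had an unadjusted p below 0.05 there.

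The 3 dark times were also set against the 3 light times. Again 0 of 9 subunits were called in each tissue by limma, with 0.0521% of all genes called in SN/VTA, 0.376% in PFC, 0.347% in STR and 0.122% in HAB. Chrna7 alone had an unadjusted p below 0.05, in PFC and in HAB, where 1673 and 1317 of all 17274 genes had one. It was at 8.42 in the dark and 8.64 in the light in PFC, a difference of -0.22 ± 0.09 (adjusted p = 0.353), and at 8.36 and 8.56 in HAB, -0.19 ± 0.09 (adjusted p = 0.585). In HAB, leaving out the second array at ZT23 brought it to -0.31 with an adjusted p of 0.0394, so 1 library decides that value.

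The cycles of sampling served as a check for a batch. The second cycle minus the first gave 0 calls of 9 in each tissue in limma, where 0%, 0.0116% and 0% of all genes were called in SN/VTA, PFC and STR and 1.12% in HAB. Unadjusted p below 0.05 were found for Chrna6 and Chrnb3 in SN/VTA, Chrna6 in PFC and Chrna7 in HAB. Of all 17274 genes, 755 had one in SN/VTA, 849 in PFC, 1222 in STR and 1737 in HAB. Chrna7 in HAB was at 8.34 in the first cycle and 8.59 in the second, a difference of 0.25 ± 0.07 (adjusted p = 0.124), and passed at 0.31 (adjusted p = 0.0315) when either HAB array at ZT15 was left out. The choroid plexus markers of HAB, with a median of 9.08 in the first cycle and 7.25 in the second, moved with the cycle too, and their part in the difference of Chrna7 was not tested.

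Within a tissue, several subunits followed the markers of a cell type or neighbouring region from array to array. The permutations, here and for the subunit pairs below, took no account of time of day. The part of a shared course over the day in these correlations was not tested. Chrna2, Chrna3, Chrna5 and Chrnb4 in HAB and Chrna4, Chrna5, Chrna6 and Chrnb3 in SN/VTA were set against 4 marker means each, and 7 of 32 correlations passed (permutation test, 100000 resamples, two-sided, adjusted p below 0.05). The other 5 subunits in each tissue gave 6 of 40. The share of such correlations that would pass for other genes was not computed. In SN/VTA, Chrna6 rose with the dopamine neuron markers with r = 0.89 and rho = 0.92 over 12 arrays (permutation p adjusted to 0.00736 for r), and r was 0.86 without the 2 arrays farthest from the median of the markers. Chrnb3 gave r = 0.88 and rho = 0.84 (permutation, adjusted p = 0.00853), or 0.83 without 2 arrays. Chrna5 gave r = 0.77 and rho = 0.80 (permutation, adjusted p = 0.0218) and 0.77 without 2, and Chrna2 gave r = 0.78 and rho = 0.72 (permutation, adjusted p = 0.0296 for r but 0.0719 for rho), or 0.84 without 2. Within the first and the second cycle, r with these markers was 0.96 and 0.88 for Chrna6, 0.96 and 0.91 for Chrnb3, 0.80 and 0.76 for Chrna5, and 0.87 and 0.84 for Chrna2. Chrna4 in SN/VTA, by contrast, showed no detectable relation to them (r = -0.05, rho = 0.01, permutation, adjusted p = 0.930, -0.01 without 2 arrays). Of all genes outside the marker list, 0.0927% had an r as high as Chrna6, 0.122% as high as Chrnb3, 0.660% as high as Chrna5 and 0.626% as high as Chrna2.

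The listed thalamus markers ran the other way in SN/VTA. Their mean was as high there (median 9.36) as in HAB (9.27), and 0 of the 8 markers were called between these tissues. The list thus does not set thalamus apart from midbrain in these data, and which cells it reflects in SN/VTA was not tested. Chrna6 fell as these markers rose, with r = -0.83 and rho = -0.89 (permutation, adjusted p = 0.00736), -0.77 without 2 arrays, and -0.94 and -0.91 within the cycles. Of all genes outside the list, 0.0695% had an r as low. Chrnb3 gave r = -0.71 and rho = -0.80 (permutation, adjusted p = 0.0368), -0.75 without 2 arrays and -0.75 and -0.87 within the cycles, but missed the threshold after centring on array medians (r = -0.63, permutation, adjusted p = 0.115).

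In HAB the spread of Chrna4 went with the thalamus markers. Their r was 0.95 and rho 0.92 (permutation, adjusted p = 0.0004 for r), 0.91 without the 2 farthest arrays, and 0.97 and 0.96 within the cycles. The first array at ZT7 had the lowest Chrna4 (8.20) and the lowest mean of thalamus markers (8.20), and the first array at ZT23 the highest of both (10.09 for Chrna4). Chrnb2 gave r = 0.93 and rho = 0.85 (permutation, adjusted p = 0.0004), 0.85 without 2 arrays, and 0.97 and 0.89 within the cycles. Among all genes outside the list, 0.440% had an r as high as Chrna4 and 0.643% as high as Chrnb2. The levels of these subunits in HAB, and so their differences between HAB and PFC or STR, were thus measured in RNA whose thalamus markers varied by 1.79 on the log2 scale from array to array, and the part of the thalamus in them was not tested.

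**Figure D5:**
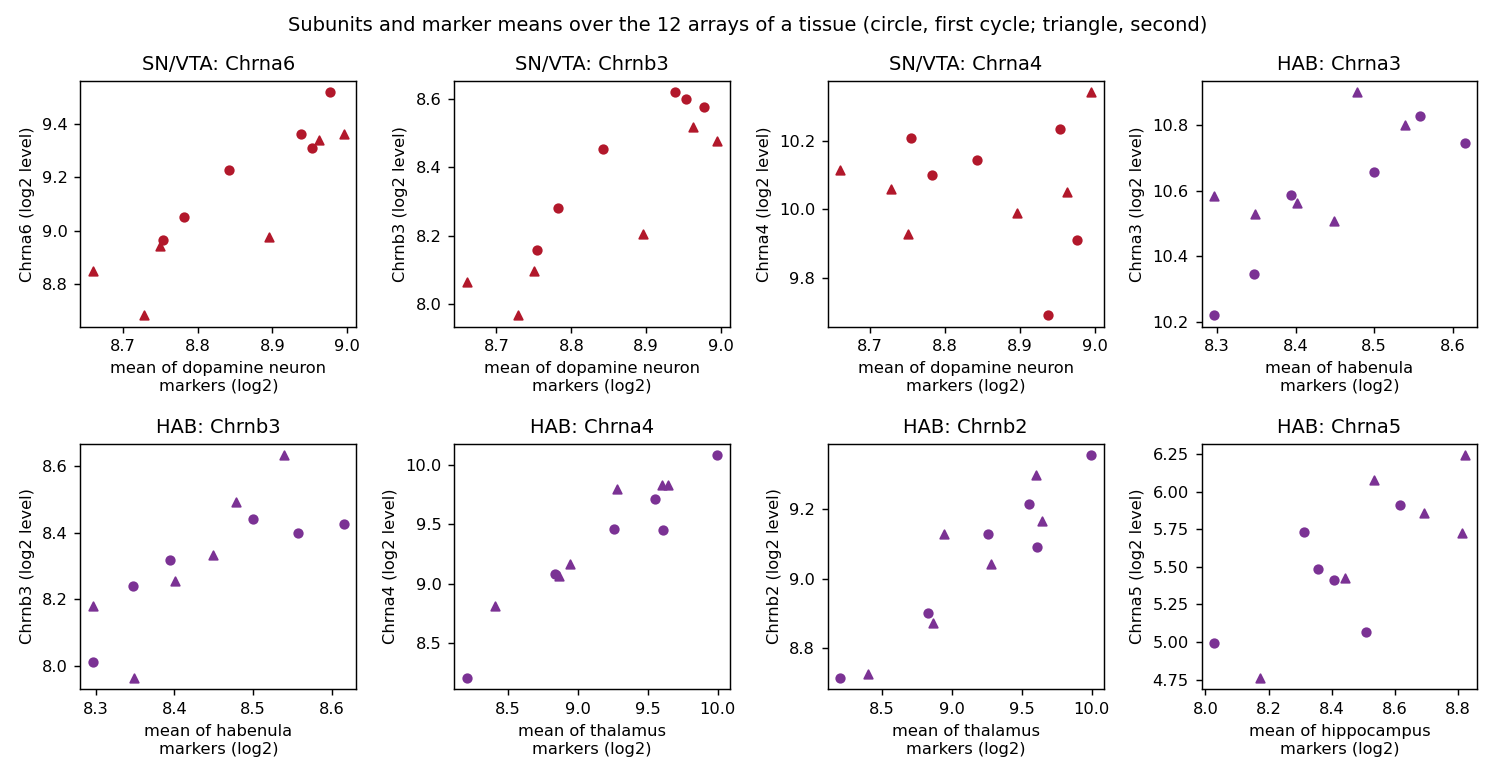
Log2 level of a subunit (y axis) against the mean log2 level of a marker list (x axis) over the 12 arrays of SN/VTA (red) or HAB (purple); circles are the first cycle and triangles the second. Chrna6 and Chrnb3 rise with dopamine neuron markers and Chrna4 does not (r of 0.89, 0.88 and -0.05), while in HAB Chrna4 and Chrnb2 rise with thalamus markers (0.95 and 0.93).

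Chrna3 and Chrnb3 followed the habenula markers in HAB instead. Chrna3 gave r = 0.77 and rho = 0.78 (permutation, adjusted p = 0.0218), 0.75 without 2 arrays, and 0.93 and 0.65 within the cycles. Chrnb3 gave r = 0.80 and rho = 0.84 (permutation, adjusted p = 0.0197), 0.89 without 2 arrays, and 0.86 and 0.88 within the cycles. Chrnb4 gave r = 0.68 and rho = 0.67 and missed the threshold (permutation, adjusted p = 0.0627), with 0.57 without 2 arrays. Of all genes outside the list, 0.272% had an r as high as Chrna3, 0.168% as high as Chrnb3 and 0.985% as high as Chrnb4. Neither Chrna3 (r = -0.18, rho = -0.15, 0.05 without 2 arrays) nor Chrnb4 (r = -0.25, rho = -0.17, 0.24 without 2 arrays) showed a detectable relation to the thalamus markers (permutation, adjusted p = 0.875 and 0.724).

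Chrna5 and Chrna7 in HAB rose with the hippocampus markers. Chrna5 gave r = 0.76 and rho = 0.73 (permutation, adjusted p = 0.0259), 0.61 without 2 arrays, and 0.55 and 0.84 within the cycles. Chrna7 gave r = 0.77 and rho = 0.71 (permutation, adjusted p = 0.0280 for r but 0.0719 for rho), 0.62 without 2 arrays, and 0.55 and 0.90 within the cycles, but with the cycle as a block its adjusted p was 0.0549 (r = 0.70). These hold less apart from other genes, since 2.53% of all genes had an r with the hippocampus markers as high as Chrna5 and 2.17% as high as Chrna7. The sixth relation that passed among the added subunits was that of Chrna7 with choroid plexus markers in HAB (r = -0.72, rho = -0.55, permutation, adjusted p = 0.0416 for r but 0.236 for rho, -0.73 without 2 arrays). With the cycle as a block its adjusted p was 0.255 (permutation), and r was 0.04 within the first cycle and -0.85 within the second.

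Pairs of subunits were set against each other within each tissue as well, and 3 of 144 correlations passed by r. How many pairs of other genes would pass was not computed. In SN/VTA, Chrna6 and Chrnb3 moved together with r = 0.97 and rho = 0.94 (permutation, adjusted p = 0.00144), 0.97 without 2 arrays, and 0.92 and 0.99 within the cycles. Of the 17273 other genes tested, Chrnb3 had the highest r with Chrna6 on these arrays. Chrna3 and Chrnb3 in SN/VTA gave r = 0.84 and rho = 0.76 (permutation, adjusted p = 0.0470 for r but 0.161 for rho), 0.71 without 2 arrays, and 0.45 and 0.95 within the cycles. By r with Chrna3, Chrnb3 ranked 18 of the 17273 other genes there. Chrna3 and Chrnb4 in STR passed by rho alone, with rho = 0.85 and r = 0.80 (permutation, adjusted p = 0.0403 for rho and 0.0547 for r), 0.75 without 2 arrays, and 0.84 and 0.80 within the cycles. In HAB, Chrna4 and Chrnb2 gave r = 0.90 and rho = 0.90 (permutation, adjusted p = 0.00144), 0.82 without 2 arrays, and 0.98 and 0.82 within the cycles. By r with Chrna4, Chrnb2 ranked only 115 of the 17273 other genes there. The same pair gave r = 0.13 and rho = 0.26 in SN/VTA (permutation, adjusted p = 0.911), 0.58 without 2 arrays; the difference between the tissues was not tested. With the cycle as a block 13 of 144 passed.

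The genes most like each subunit over the 48 arrays were found by Pearson's r, which here mostly reflects the order of the 4 tissues and carries no test. For Chrna6 they were Slc6a3 (0.99), Th (0.99) and Pvalb, a calcium-binding protein (0.98). For Chrnb4 they were Lrrc55 (0.99), Tac2, the neurokinin B precursor (0.98), and Htr5b, a serotonin receptor (0.98), all 3 of which are in the habenula marker list. For Chrna3 they were Shisa6, Amigo2 and Syt9, each at 0.98. Chrnb3 was most like Minar1 (0.98), A2m (0.97) and Hhip (0.96), and Chrnb2 most like Zfhx3 (0.97), Slitrk6 (0.96) and Calb2, which encodes calretinin (0.96). Chrna4 was most like Rims3, Creg1 and Chst8, each at 0.95. The subunits with flatter patterns had weaker likeness: Chrna5 to Crhbp, which binds corticotropin-releasing hormone (0.89), Chrna7 to Creg2 (0.87) and Chrna2 to Glcci1 (0.83).

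Other genes of nicotinic signalling were counted from lists. By limma with the 2-fold rule, 16.7% of all genes tested were called in at least 1 of the 6 tissue pairs. Of 7 further nicotinic subunits, those of muscle and of the inner ear, 6 were tested and 0 were called in any pair. The tissue means of the tested ones lay between 5.03 and 6.01. Of 18 listed symbols of chaperones and binding proteins of the receptor, 15 were tested and 3 were called. This is close to the share of all genes, so the count does not set the list apart. Lypd6b, which encodes a receptor-binding protein of the Ly6 family, was at 7.05 in SN/VTA and 2.27-fold above PFC, 2.27-fold above STR and 2.47-fold above HAB. Tmem35a, which encodes the assembly chaperone NACHO, was 2.12-fold higher in SN/VTA than in PFC (9.48 against 8.40), and Ly6e was 2.39-fold higher in PFC than in SN/VTA (10.94 against 9.68) and 2.79-fold higher than in STR. PFC was thus the lowest tissue for Tmem35a as it was for Chrnb2.

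Of 8 genes of acetylcholine synthesis, transport and breakdown, 7 were tested and 5 were called, against 16.7% of all genes tested. Chat, which makes acetylcholine, Slc18a3, which loads it into vesicles, and Slc5a7, which takes up choline, were high in STR (7.28, 7.50 and 8.29) and HAB (7.18, 7.38 and 8.28), and did not pass between these 2 tissues. HAB exceeded SN/VTA by 3.18-fold for Chat, 3.20-fold for Slc18a3 and 4.65-fold for Slc5a7. Prima1 and Slc44a1 were the other 2 called. Prima1 was highest in STR (7.39) and lowest in PFC (6.25), with STR 2.19-fold and SN/VTA 2.02-fold above PFC. Slc44a1 was 2.11-fold higher in SN/VTA than in PFC. STR and HAB differed by a call in Chrna3, Chrna4, Chrnb3 and Chrnb4, as given above. None of the genes of these 3 lists was called as rhythmic in any tissue or over all tissues. Of all genes, at most 0.179% were called in a tissue and 5.55% over all tissues.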

How the data were processed

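The table deposited by the authors holds 1 value per probe set and array, read here as log2, because values span 1.09 to 13.65 and its array medians 5.84 to 6.07. How background was corrected and probes summarised or normalized is not given in the sources used here. Total RNA was isolated on columns and turned into biotin-labelled cDNA, per the labels' protocols. Of 41345 rows, 23521 carried 1 gene symbol in the platform annotation, which gave 22180 genes. Genes entered the tests if their mean reached the level that 30% of rows lie below.

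Tests used limma 3.58.1 (lmFit, eBayes) in R 4.3.3 and were tried on simulated data. Tissue pairs, dark against light and the cycle were contrasts in models of 24 groups of tissue and time over all 48 arrays. The model for the cycle also held a term for the cycle within each tissue. The 24-h curve was fitted per tissue on 12 arrays, with 9 residual degrees of freedom. Benjamini-Hochberg adjustment covered the 17274 genes, or each family of permutation tests (scipy 1.17.1). A marker mean is the mean log2 level of the listed genes on an array. The labels call the 2 arrays of a group biological replicates, and their number marks the 24-h cycle per the labels; deviations from group means of arrays of 1 tissue and number correlated with a mean r of 0.0357 (60 pairs, -0.16 to 0.41). Apart from the test of the cycle itself, the main tests held no term for the cycle.

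The rule for named genes took all 9 subunits, for each the 3 genes most like it (predicted and short RNA genes passed over), and at most 6 called members of each list. The members and lists were chosen with earlier results of these data known. Relations of the other subunits with markers, all subunit pairs and the 24-h curve of marker means were added after seeing the data. Alternatives were other scalings, other filters, no minimum difference, a 12-h period, time as 6 levels, fits on fewer or more arrays, the cycle as a block and leaving out single arrays. No detection calls were used, and precision is limited by how many arrays there are. Promoter windows for Chrna2, Chrna6 and Chrnb3 were not used here.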

Additional observations from a re-analysis of the deposited data

How the results depend on the processing

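No result that passed its test changed direction under the alternatives run. Without the minimum difference the counts of subunits called by limma were 9 for SN/VTA against STR, 7 against HAB, 7 for PFC against STR, 7 for PFC against HAB and 8 for STR against HAB. Leaving out single arrays gave 0 to 1 calls for PFC against STR, for the shared curve, for the cycle in HAB and for dark against light in HAB, and 0 for the 24-h curve in each tissue. Leaving out 1 cycle left 25 of 30 balances past the threshold. Quantile normalization took 2 balances of SN/VTA against STR below it, Chrnb4 to Chrnb2 (adjusted p = 0.201, permutation) and Chrna3 to Chrna4 (0.239). Of 144 subunit pairs, 5 passed after centring on array medians and 13 with the replicate block; the block also raised Chrna7 with thalamus markers in HAB past the threshold (adjusted p = 0.0173, permutation) and changed no other call but those given above. Centring on array medians moved the median difference of all genes by 0.12 to 0.19 for SN/VTA against the other tissues, and the share of calls that were higher in SN/VTA from 66.3% to 76.2% against PFC, 62.5% to 82.1% against STR and 44.2% to 64.1% against HAB. It flipped the sign of 1 of 54 subunit differences and quantile normalization that of 2, none of which had passed the test. Chrna2 lies below the stricter filter and has no value there. Low levels without detection calls limit what can be said of Chrna2 and Chrna5, and of Chrna3, Chrna6, Chrnb3 and Chrnb4 in their low tissues. Chrna3 had a mean of 5.87 in PFC, and Chrnb3 had means of 5.83 in PFC and 5.67 in STR. Fold changes over such levels carry the same limit.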
